A study of Mus musculus with 4 samples.

Results

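The killer lectin-like receptors are C-type lectin-like proteins of the cell surface, and this account covers every gene whose symbol starts with Klra, Klrb, Klrc, Klrd, Klre, Klrg, Klri or Klrk and a digit. The rule used names alone and no measured value, and it found 26 of the 32285 genes listed in the files. They fell into 6 groups by role. The Ly49 receptors were the 11 Klra genes, and the NKR-P1 receptors were the 5 Klrb genes. The CD94-NKG2 group was Klrd1 (CD94) with its partners Klrc1 (NKG2A), Klrc2 (NKG2C) and Klrc3 (NKG2E). NKG2D was Klrk1, the KLRE-KLRI group was Klre1, Klri1 and Klri2, and the KLRG group was Klrg1 and Klrg2.

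Single-cell RNA-seq was made from tumors of MC38, a mouse colon cancer cell line, grown under the skin of C57BL/6 mice, which are syngeneic to the line. The tumor cells carried RAC1 either wild-type (WT) or as A159V on both copies, an edit made by CRISPR in a single clone, so that line is 1 clone. RAC1 is a small GTPase of the actin cytoskeleton, and only the injected tumor cells were edited, so every immune cell described here came from an unedited host. Mice received an antibody to PD1 (clone RMP1-14) or control IgG by intraperitoneal injection, and all tumors were taken at the same time point. The 4 groups are called WT IgG and WT anti-PD1 for the line without the edit, and then A159V IgG and A159V anti-PD1. Each held 1 library, and values for the 4 libraries are given in this order throughout. The number of mice behind a library was not given in the sources used here. CD45+ and CD45− cells had been parted with beads and mixed again at a set ratio, so the balance of immune to other cells was set by hand. With 1 library per group no difference between groups could be tested, and each interval below is a 95% interval for counting error only (exact Poisson for levels, exact binomial for shares).

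Ly49 receptors and the CD94-NKG2A pair read MHC class I molecules on other cells. Inhibitory members carry an immunoreceptor tyrosine-based inhibition motif (ITIM) in their cytoplasmic tail and recruit phosphatases such as SHP-1. Activating Ly49 and CD94-NKG2 receptors lack it and signal through the adaptor DAP12 (Tyrobp). NKG2D, which pairs with DAP10 (Hcst) and in mice also with DAP12, recognizes stress-induced ligands of the RAE-1, H60 and MULT1 families, NKR-P1 receptors bind Clec2 family proteins, and KLRG1 binds cadherins. Each NK cell uses only some of the Ly49 genes, so that NK cells of 1 animal differ in the set that they carry. Many of these receptors also appear on CD8 T cells, gamma-delta T cells and some myeloid cells.

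All 26 genes lay on chromosome 6 of GRCm38 (mm10), the assembly of the counts. Of these, 24 lay in the NK gene complex, chr6:128609227-131247362, from Klrb1a to Klra2. Klrg1 (chr6:122270596-122282882) and Klrg2 (chr6:38625693-38637242) lay outside it. A search of the first 60 codons of each coding sequence (GENCODE, GRCm38) for codons that spell an ITIM found it in 15 of the 26 genes, against 1617 of 21526 genes with a complete coding sequence (7.51%). It was there in 9 of the 11 Ly49 genes and not in Klra4 and Klra8. The stretches below are coding sequence, 10 codons each, shown as examples of the motif in inhibitory members of 4 groups. The search also counted Klrb1c, which is known as an activating receptor, with the motif at codon 55, so a match is a description of letters and not of function. Capitals mark the 6 codons of the motif.
Klra7: caggagGTCACTTACTCAACTGTGagattt
Klra1: caggagGTCACTTATTCAATGGTGagattt
Klra2: caggagGTCACTTACACAACTCTGagattt
Klrc1: gaacgcGTCACCTATGCAGAACTGaaggtg
Klrb1b: acaacaCTGGTCTATGCAGATTTAaaccta
Klrg1: gacagcTCTATCTATTCAACACTAgagctg

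In the next pair the capitals mark codon 8, which is in the place of the tyrosine codon of the motif in Klra7, Klra1 and Klra2. The pair encodes Ly49D (Klra4) and Ly49H (Klra8), the activating Ly49 receptors of C57BL/6 mice. These letters describe the reference sequence and were not read from the libraries.
Klra4: caggaagacactTTCtcagctgtgagattc
Klra8: caggaggtcactTTCccaactatgagattc

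The libraries held 7430 to 9311 cell barcodes and between 54402632 and 125227747 UMIs (unique molecular identifiers, the counted molecules), with medians of 3225 to 4088 UMIs per barcode, and pairs of libraries shared 13 to 22 barcodes. After filters, 6466 to 8248 cells were analyzed. Cells were clustered without the receptors, their adaptors or their ligands, and clusters were named by marker genes. The WT anti-PD1 library stood apart. It held 15 tumor-like cells against 1999 to 2823 in the others, 1594 stromal-like cells against 145 to 189, and most of its lymphocytes sat in clusters of their own: NK cluster 5 (414 of its 467 NK-like cells), CD8 cluster 3 (486 of its 535 CD8-like cells) and a cluster numbered 9 (246 of its 276 Tcrg-C2 T cells). In its NK-like cells the 7 stromal marker genes summed to 693 CPM (counts per 1000000 UMIs of the class in that library), against 33.9 to 60.2 CPM in the other libraries. The part of these differences in the values below was not tested, and what the antibody did cannot be told apart from what set this library apart.

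NK-like cells numbered 221, 467, 455 and 358 and had a median of 3192 to 3870 UMIs. They were named without any receptor of the family. The 11 NK markers were all detected and summed to 7457 to 9941 CPM, Ncr1 (NKp46) was at 332 to 448 CPM, and Cd3e, a T cell gene, was at 2.14 to 8.69 CPM. The 26 receptors together made up 5391 (5258 to 5527), 6389.7 (6276 to 6505), 4398 (4309 to 4488) and 4669 (4564 to 4776) CPM. WT anti-PD1 was the highest and A159V IgG the lowest. After each cell was thinned to 1500 UMIs, a UMI of any member was found in 99.0%, 100%, 98.2% and 99.0% of NK-like cells. Among the receptor UMIs of NK-like cells, the Ly49 group held 27.6% to 32.2% and the CD94-NKG2 group 23.01% to 31.7%.

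The family was not spread evenly over cell classes. Of the 26 genes, 24 had at least 20 UMIs in NK-like and CD8-like cells together, and 14 of them were at least 2-fold higher in NK-like cells in each of the 4 libraries, where 2.51% of all genes at that minimum were. None was at least 2-fold higher in CD8-like cells in each library, where 2.73% of all genes were. Against regulatory T (Treg)-like cells 21 of 24 were higher in NK-like cells (background 4.32%), and 1, Klrg1, was higher in Treg-like cells (6.58%). Klra2 and Klra17, 2 of the 26, were higher in macrophage-like than in NK-like cells (12.2%). Class contrasts like these are descriptions of the same 4 libraries, with no test.

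**Figure D1:**
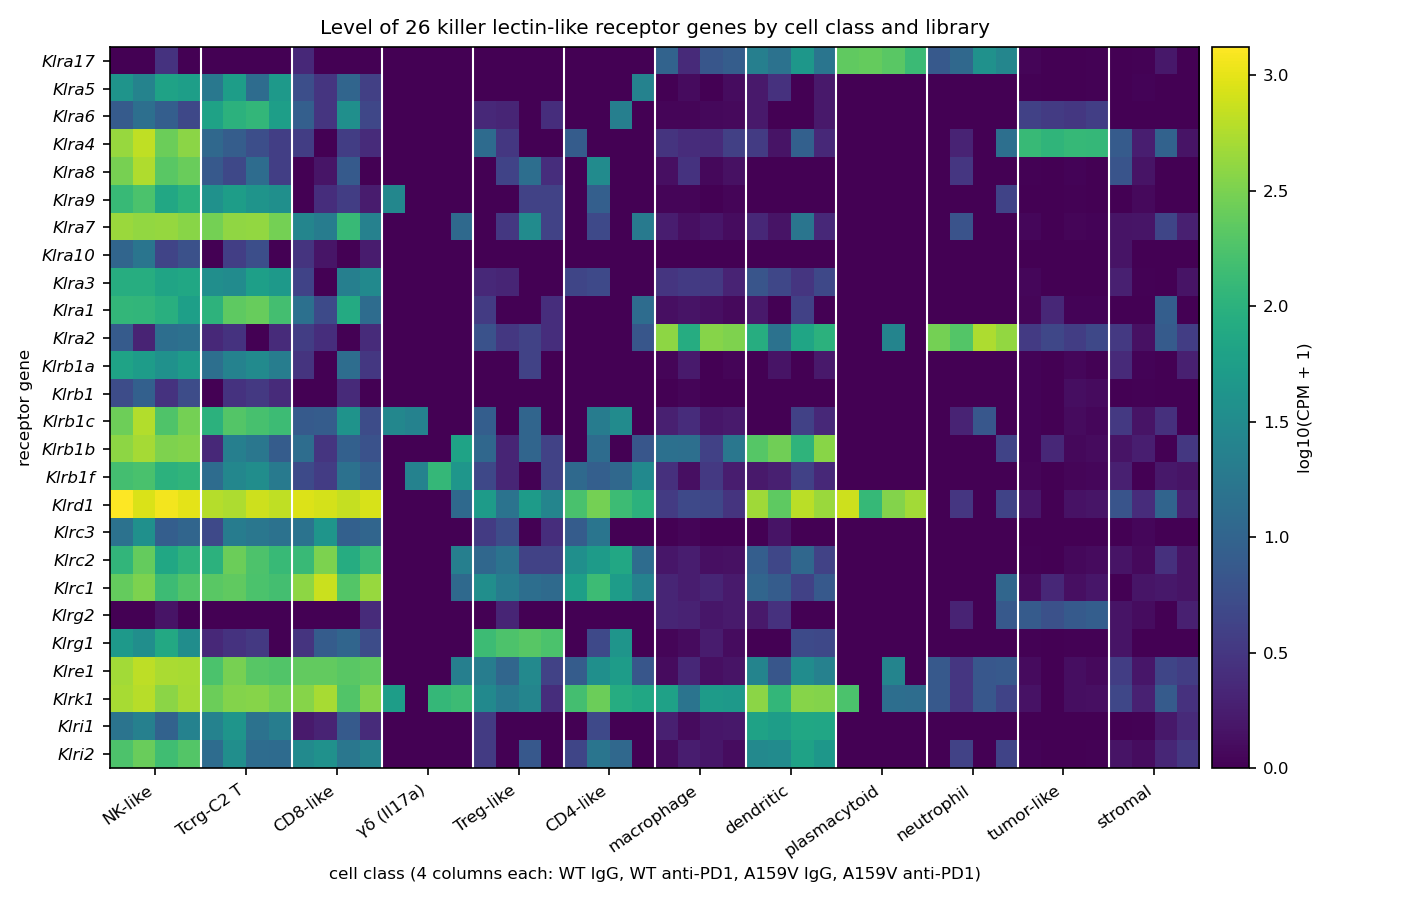
Level of each of the 26 receptor genes (rows) in each cell class and library (columns; the 4 libraries of a class stand side by side), drawn as log10(CPM + 1) by color. Most rows are brightest in NK-like cells, Klrg1 in Treg-like cells, Klra2 in macrophage-like and neutrophil-like cells, and Klra4 is also bright in tumor-like cells.

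Both activating Ly49 genes, Klra4 and Klra8, were largely NK genes among the lymphocytes. Klra4 was at 435 (398 to 475), 671 (634 to 709), 259 (238 to 282) and 379 (349 to 410) CPM in NK-like cells. Klra8, whose product binds a cytomegalovirus protein, was at 298 (267 to 331), 553 (520 to 588), 208 (189 to 229) and 254.5 (231 to 280) CPM. Both were highest in WT anti-PD1 and lowest in A159V IgG, with intervals that did not overlap those of the WT IgG library. In CD8-like cells the libraries held 0 to 4 UMIs of Klra4 and 0 to 5 of Klra8, and in Tcrg-C2 T cells 2 to 8 and 2 to 5.

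The inhibitory Ly49 genes did not share 1 order across the libraries. Klra7 (Ly49G2) differed little, at 449 (411 to 489), 410.1 (382 to 440.2), 429 (401 to 458) and 366 (337 to 396) CPM, with intervals that overlapped in the first 3 libraries. Klra1 (Ly49A) was at 117, 112, 93.2 and 57.1 CPM, and its interval in A159V anti-PD1 (46.0 to 70.0) lay below those of the other libraries. Klra9 (Ly49I) was at 125, 174, 74.2 and 96.2 CPM, and Klra3 (Ly49C) at 86.9, 86.9, 64.7 and 72.0 CPM. Klra5 (Ly49E) ran the other way, at 40.0, 23.6, 62.3 and 55.3 CPM, with the lowest value in WT anti-PD1. Klra6, Klra10, Klra2 and Klra17 were at or below 15.6 CPM in NK-like cells of every library. Reads of near-identical copies could fit more than 1 gene, and how the counting treated them was not examined. The last 500 bases of each transcript were cut into 90-base windows and compared with the transcripts of 30 loci of this family. Klra10 shared 15.6% of windows with another of these loci, Klra9 12.4%, Klra7 6.57% and Klra3 5.15%, while Klra1, Klra2, Klra4 and Klra6 shared none. Introns and genes outside the family were not compared. No window of Klra8 itself was shared, but Klra8 was 1 of the genes that shared windows of Klra9.

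Among the NKR-P1 receptors, Klrb1c (NK1.1, activating, although the letters of the motif were matched in it) was at 270.2 (241 to 302), 582 (548 to 617), 184 (166 to 203) and 295 (269 to 323) CPM. It was higher in each anti-PD1 library than in the IgG library of the same tumor genotype. Klrb1b, the inhibitory receptor for Clec2d, was at 388, 504, 332 and 348 CPM. Klrb1f was at 155, 165, 99.4 and 110.5 CPM, Klrb1a at 63.4, 51.5, 37.1 and 50.9 CPM, and Klrb1 held 4 to 15 UMIs. All 5 had their lowest level in A159V IgG, where the intervals of Klrb1, Klrb1a, Klrb1b and Klrb1f overlapped those of A159V anti-PD1.

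The CD94-NKG2 pairings put an inhibitory chain (Klrc1) and activating chains (Klrc2, Klrc3) on the same partner, Klrd1. Klrd1 was at 1322 (1257 to 1390), 873 (831 to 916), 1179.5 (1134 to 1227) and 991 (943 to 1041) CPM, and it was lower in each anti-PD1 library than in its IgG library. Klrc1 was at 243 (216 to 273), 320.0 (295 to 347), 136 (121 to 153) and 186 (166 to 208) CPM, and Klrc2 at 111, 242, 70.8 and 104 CPM. These chains ran against Klrd1, since both were higher in each anti-PD1 library. In WT the median of all genes in NK-like cells was also higher, by 0.34 on the log2 scale, which was near the rise of Klrc1. Klrc3 was at 13.9, 35.4, 7.61 and 9.31 CPM, and the sequence-sharing share was 21.9% for Klrc1, 6.36% for Klrc2 and 9.08% for Klrc3, so that reads could be split among these 3 genes.

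Of the remaining receptors of NK-like cells, Klrk1 (NKG2D) was at 519, 602, 379 and 499.7 CPM. Klre1, which pairs with the Klri products, was at 489.9, 637, 524 and 521 CPM. Klri2, the activating partner, was at 175, 254, 145 and 192 CPM, and Klri1, the inhibitory partner, at 14.8, 22.0, 8.56 and 22.97 CPM. Klrg1, a receptor of mature NK cells that binds cadherins, was at 46.0 (34.5 to 60.2), 34.3 (26.4 to 43.8), 75.6 (64.3 to 88.3) and 32.9 (24.6 to 43.0) CPM, and A159V IgG stood above the others. Klrg2 had 1 UMI in NK-like cells of all libraries.

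**Figure D2:**
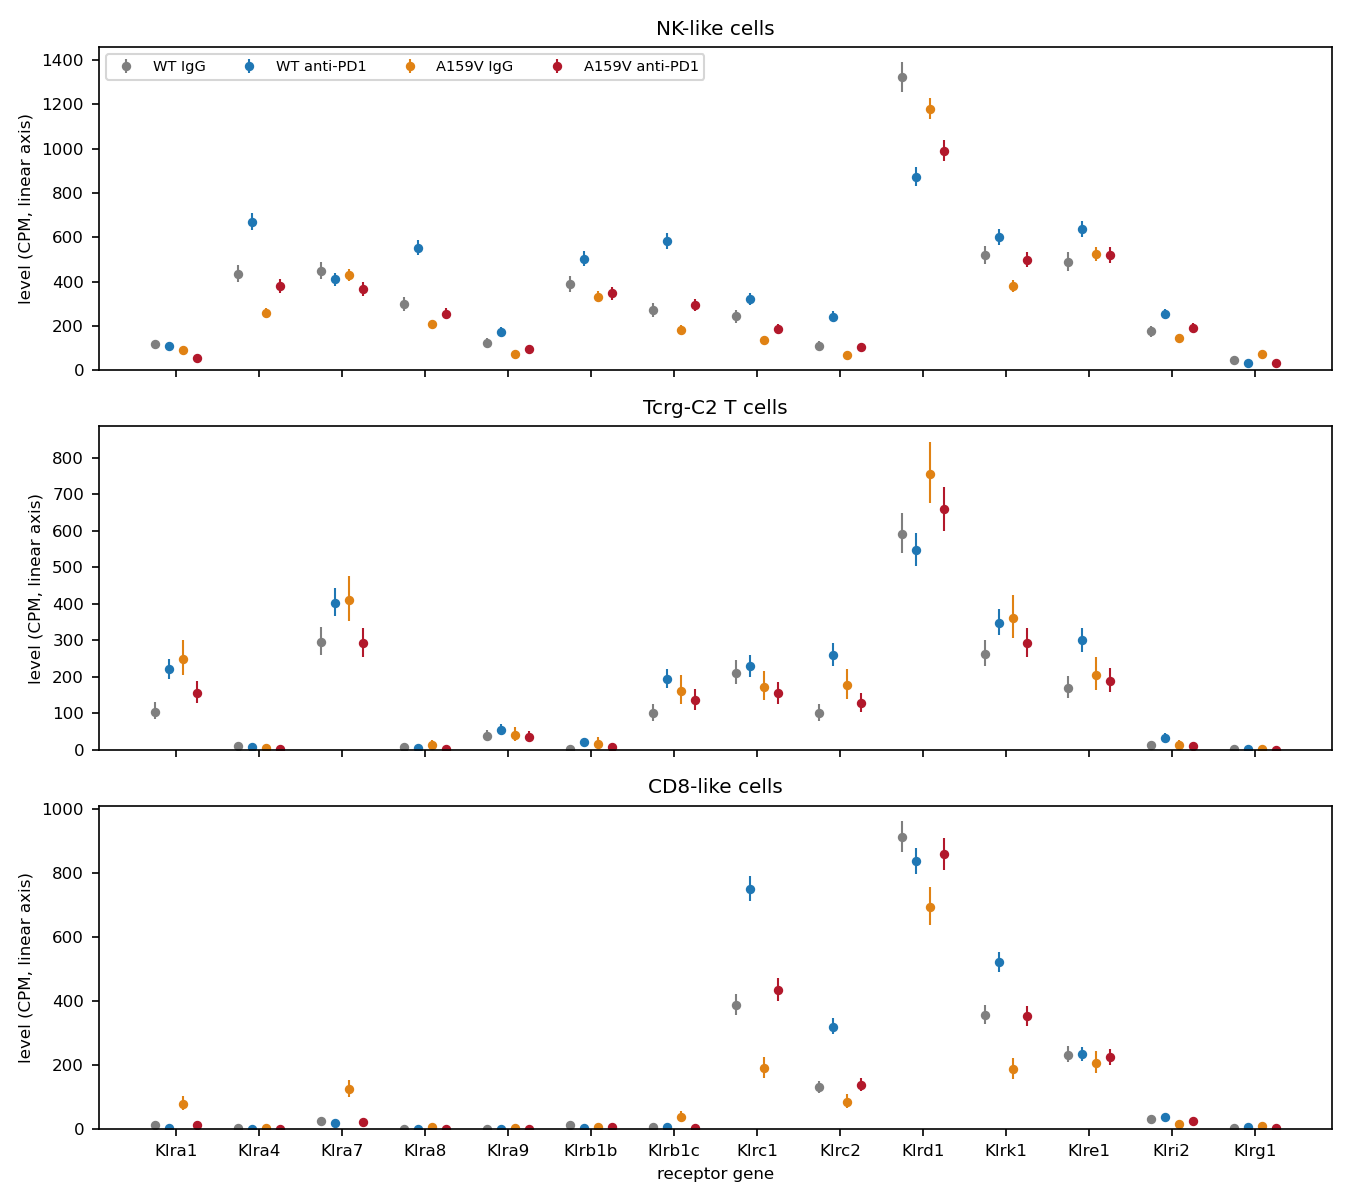
Levels of 14 receptor genes in CPM (linear axis) in NK-like, Tcrg-C2 T and CD8-like cells, 1 point per library with its 95% Poisson interval. Klra4, Klra8 and Klrb1b sit near 0 in the Tcrg-C2 T and CD8-like panels, and Klra7 and Klra1 are high in NK-like and Tcrg-C2 T cells. Klrc1 in CD8-like cells runs from 190.5 CPM in A159V IgG to 750.4 CPM in WT anti-PD1.

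NK-like cells differed from each other in the set of Ly49 genes read in them. At 1500 UMIs per cell, no Ly49 UMI was found in 31.4%, 26.8%, 31.7% and 34.7% of NK-like cells, and 3 or more Ly49 genes were found in 18.1%, 22.9%, 10.6% and 13.7%. Klra4 had a UMI in 33.8%, 36.6%, 25.7% and 29.0% of them, against 0% to 1.69% of stromal-like cells thinned the same way (medians of 7892 to 14351 UMIs before thinning), where 0 of the cells allows up to 1.63%. At this depth a cell without a UMI is not a cell without the receptor.

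Cells with a Klrc1 UMI carried Ly49 UMIs less often in each library. A Ly49 UMI was found in 44.4%, 50%, 51.6% and 43.8% of NK-like cells with a Klrc1 UMI and in 75.5%, 83.6%, 71.5% and 71.8% of those without. The gap was there within the largest NK cluster of each library as well. It was 53.6% against 78.6% in cluster 2 of WT IgG and 59.3% against 84.8% in cluster 5 of WT anti-PD1. In cluster 2 it was 60.5% against 78.3% in A159V IgG and 49.0% against 72.4% in A159V anti-PD1. The intervals overlapped in cluster 2 of WT IgG and of A159V IgG, and the smaller clusters are not given here. For Klra4 alone the shares were 11.1%, 13.3%, 9.68% and 12.3% with Klrc1 and 40.3%, 47.0%, 28.8% and 34.0% without. The gap was smaller for Klra7, at 22.2%, 23.3%, 27.4% and 21.9% with Klrc1 against 41.5%, 38.4%, 38.1% and 34.0% without. For Klra7 the intervals with and without Klrc1 overlapped in WT IgG and in both A159V libraries. The cells with a Klrc1 UMI numbered 45, 120, 62 and 73.

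Both activating Ly49 genes were read together. Klra8 had a UMI in 39.1%, 52.8%, 29.3% and 31.9% of NK-like cells with a Klra4 UMI and in 16.3%, 26.02%, 16.1% and 17.9% of those without. Klra7 was found in 43.5%, 40.8%, 48.5% and 37.4% of the cells with Klra4 and in 34.1%, 29.7%, 32.2% and 28.7% of the others. The intervals of the shares with and without Klra4 overlapped for Klra8 in both A159V libraries, and for Klra7 in every library but A159V IgG. Cells of 1 library are not replicates, so these shares describe the cells and carry no test.

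**Figure D3:**
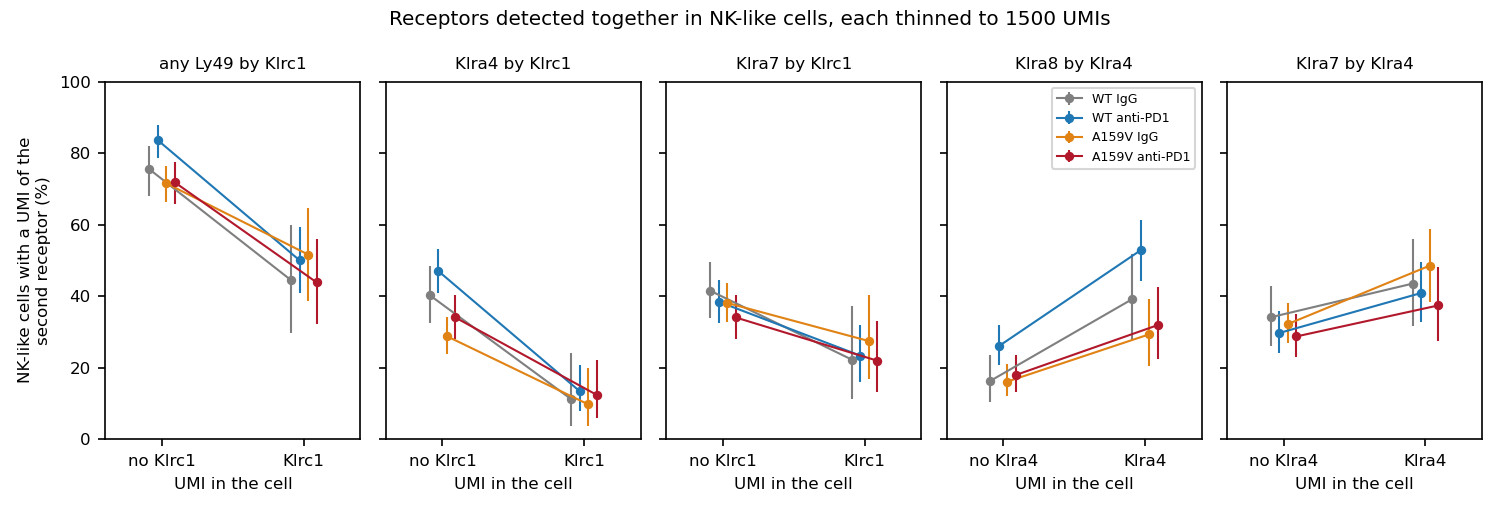
Share of NK-like cells (percent, each cell thinned to 1500 UMIs) with a UMI of one gene, among cells with and cells without a UMI of another, per library with 95% binomial intervals. Shares of Ly49 genes are lower in cells with a Klrc1 UMI in all 4 libraries, and Klra8 shares are higher in cells with a Klra4 UMI. Intervals overlap for Klra7 by Klrc1 in WT IgG and both A159V libraries, and for Klra8 by Klra4 in both A159V libraries.

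Whether RAC1 A159V in the tumor cells went with other receptor levels in NK-like cells was read from A159V IgG against WT IgG. No member was past 2-fold with at least 20 UMIs, while 2.42% of all genes at that minimum were at least 2-fold higher and 1.53% at least 2-fold lower. Of 22 members at the minimum, 17 lay below 0 and 5 above, with a median log2 ratio of -0.44 against -0.04 over all genes, and the summed level was 0.816-fold (0.790 to 0.842), a log2 ratio of -0.29 (-0.34 to -0.25). Klrc1 (log2 ratio -0.83), Klrb1a (-0.76), Klra4 (-0.75) and Klra9 (-0.75) lay lowest among members whose interval excluded 0. Klra2 (0.75, interval -0.26 to 1.76, on 8 UMIs in WT IgG and 26 in A159V IgG), Klrg1 (0.70) and Klra5 (0.63) lay above 0. So did Klra6 (0.11, on 8 UMIs in WT IgG and 16 in A159V IgG) and Klre1 (0.10, interval -0.05 to 0.24). With a limit of 1.5-fold, 8 members were lower (8.39% of all genes) and 3 higher (7.91%).

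The anti-PD1 libraries were read against the IgG library of the same genotype, so that each IgG library served in more than 1 comparison. In WT the median of all genes was shifted by 0.34 on the log2 scale in NK-like cells, and the members' median was 0.39. Klrc3 (log2 ratio 1.29), Klrc2 (1.12) and Klrb1c (1.10) were at least 2-fold higher, 3 of 23 members at the minimum where 16.1% of all genes were higher, and no member was 2-fold lower, where 5.97% of all genes were. Relative to the shift of all genes all 3 were under 2-fold, with log2 ratios of 0.80 for Klrc2, 0.78 for Klrb1c and 0.98 for Klrc3 under median-of-ratios scaling. With a limit of 1.5-fold, 8 members were higher (35.7%) and 2 lower (13.5%). Klra8 was at 0.89, Klra4 at 0.62 and Klrd1 at -0.60. The summed level was 1.19-fold (1.15 to 1.22), log2 ratio 0.25, but -0.077 with median-of-ratios scaling, so its direction depended on the scaling.

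In A159V tumors the shift of all genes was 0.13 and the members' median 0.21. Of 22 members at the minimum, Klri1 was higher (log2 ratio 1.33, 18 and 37 UMIs, background 2.18%) and Klrg1 lower (-1.18, background 1.19%). Past 1.5-fold, 2 were higher (12.3%) and 3 lower (5.34%). Klrb1c was at 0.68, Klra4 at 0.55 and Klra1 at -0.70. The summed level was at a log2 ratio of 0.09 (0.04 to 0.13), and at -0.072 with median-of-ratios scaling.

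Receptor levels also differed between the clusters of NK-like cells, which the receptors had no part in making. Cluster 8 was led by granzyme genes (Gzmc to Gzmg), which encode proteases of cytotoxic granules, and held 47, 14, 172 and 68 cells, so that it was 172 of the 455 NK-like cells of A159V IgG. Cluster 2 held 145, 29, 228 and 243. In WT IgG, A159V IgG and A159V anti-PD1, Klrb1c was at 113, 99.1 and 124 CPM in cluster 8 and at 402, 366 and 437 CPM in cluster 2, and Klrk1 was at 365, 277 and 319.7 CPM against 637, 573 and 632 CPM. Klrg1 ran the other way, at 105, 95.6 and 79.9 CPM in cluster 8 against 17.4, 41.4 and 10.8 CPM in cluster 2. Klra7, at 429.5, 465.5 and 421 CPM against 486, 461 and 366 CPM, and Klrd1, at 1402, 1269 and 1113 CPM against 1441, 1162 and 995 CPM, were close in both clusters. Without cluster 8 the log2 ratio of the sum was -0.25 for A159V IgG and 0.17 for WT anti-PD1, each over WT IgG, and that of Klrg1 in A159V anti-PD1 over A159V IgG was -2.25.

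The adaptors that carry the signals of these receptors are not members of the family. In NK-like cells DAP12 (Tyrobp) was at 1247, 686, 1159 and 1007 CPM, Fcer1g at 2014, 995, 2386 and 1901 CPM, DAP10 (Hcst) at 245, 366, 157 and 166 CPM and Cd247 at 99.0, 227, 70.4 and 142 CPM. In WT anti-PD1 over WT IgG 1 adaptor of 4 was 2-fold higher (Cd247) and 1 lower (Fcer1g). Of 13 signalling genes at the minimum, Syk and Vav1 were 2-fold higher there, and of 8 transcription factors of NK and effector T cells 5 were (Eomes, Zeb2, Prdm1, Tcf7 and Gata3), and of 9 other NK receptors Cd226 and Il18r1 were, beside 16.1% of all genes higher and 5.97% lower. In A159V IgG over WT IgG, Syk and Cd226 were 2-fold lower, beside 1.53% of all genes, and in A159V anti-PD1 over A159V IgG no gene of these lists was past 2-fold.

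CD8-like cells (344, 535, 259 and 407) used a narrower set, led by the CD94-NKG2 group, which held 55.5% to 69.8% of their receptor UMIs. Klrd1 was at 912, 837, 695 and 858 CPM. Klrc1, the inhibitory chain that also marks chronically stimulated CD8 T cells, was at 388 (357 to 421), 750.4 (713 to 789.9), 190.5 (160 to 225) and 434 (400.2 to 470.5) CPM, so that A159V IgG was lowest and WT anti-PD1 highest with intervals apart from the rest. A Klrc1 UMI was found in 36.2%, 61.4%, 25.7% and 49.4% of CD8-like cells at 1500 UMIs, against 1 of 1545 stromal-like cells in WT anti-PD1 (0.0647%) and 0 in the other libraries, which allows up to 2.07%. Klrc2 was at 131, 320.2, 84.5 and 137 CPM, and Klrk1, a costimulator of CD8 T cells, at 356, 521, 188 and 352 CPM. Both kept the order of Klrc1 between A159V IgG and WT anti-PD1. Klre1 was level at 233, 233, 208 and 225 CPM.

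Between the CD8-like cells of A159V IgG and WT IgG, 13 members reached the minimum. Klrc1 was 2-fold lower (log2 ratio -1.02, background 2.15%), and Klra1 (2.50), Klrb1c (2.39), Klra3 (2.39), Klra7 (2.27) and Klra6 (2.01) were 2-fold higher (2.79%). Klra7 was at 25.1, 19.4, 125 and 22.5 CPM and Klra1 at 13.2, 4.09, 79.1 and 11.6 CPM. These 5 genes were read mainly in cluster 11, which was led by cell-cycle genes and held 55, 19, 67 and 52 cells. In A159V IgG it held all 93 Klra7 UMIs of the CD8-like cells, all 26 of Klra6, 26 of 29 of Klrb1c and 13 of 16 of Klra3. Without it Klra7 was at 16.7, 1.68, 0 and 6.02 CPM and Klra1 at 5.58, 0, 7.68 and 0 CPM, where 0 UMIs allow up to 7.68 CPM of Klra7 in A159V IgG, and up to 1.68 and 3.01 CPM of Klra1 in WT anti-PD1 and A159V anti-PD1. The 12 gamma-delta markers, of which 8 had a UMI, summed to 223 CPM in these cells of A159V IgG against 15.9 to 38.4 CPM in the others, with Sox13, Blk and Il17a among those at 0 in that library. The CD8 markers, 2 genes, summed to 929, 1084, 575 and 844 CPM, and the NK marker Ncr1 was at 1.98, 1.53, 10.7 and 2.90 CPM, on 3 to 8 UMIs, while the 11 NK markers together were at 2825, 2588, 2823 and 3483 CPM. Of the 4 adaptors, Tyrobp and Fcer1g were also 2-fold higher there, at 7.92, 9.72, 48.3 and 15.9 CPM and at 115, 25.6, 331 and 120.3 CPM. The part of these markers in the result was not tested. The Klrc1 order held without cluster 11, at 420.2, 785, 213 and 467 CPM, and the summed log2 ratio moved from -0.29 to -0.84.

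In the CD8-like cells of WT anti-PD1 against WT IgG, where the median of all genes was shifted by 0.19, Klrc3 (log2 ratio 1.43) and Klrc2 (1.28) were 2-fold higher among 11 members at the minimum (9.75%), and Klrb1b (-2.08) and Klra1 (-1.48) were 2-fold lower (8.26%). In A159V, of 12 members Klrc1 was 2-fold higher (1.18, 2.92%), and Klra6, Klrb1c, Klra1 and Klra7 were lower (-2.96 to -2.42, 2.33%), the genes of cluster 11 again. Klrc1 was at 0.95 in the WT comparison. Among cells outside cluster 11, those with a UMI of Havcr2 (TIM-3), a marker of dysfunctional T cells, had Klrc1 at 454, 874, 248 and 513 CPM, against 400.02, 597, 198 and 439 CPM in those without. Klrd1 was likewise higher, at 1309.99, 934, 759.8 and 1157 CPM against 824, 733, 559.9 and 746 CPM. The Klrc1 intervals with and without a Havcr2 UMI overlapped in every library but WT anti-PD1, and those of Klrd1 overlapped in A159V IgG. Cells were not thinned for this split, so deeper cells were more likely to hold a Havcr2 UMI.

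The Tcrg-C2 T cells (202, 276, 214 and 273) were a T cell class led by Tcrg-C2, Nsg2 and Ifngas1. Their markers were mixed. Trdc was at 120.1 to 215 CPM and Cd8a at 64.9 to 149.8 CPM, so that they are called by their leading gene and not by a cell type. Their Ly49 set differed from that of NK-like cells, with Klra7 and Klra1 high and Klra4 and Klra8 nearly missing. Klra7 was at 295, 403, 411 and 291 CPM, Klra1 at 104, 219.9, 249.9 and 155 CPM and Klra6 at 61.9, 100.2, 117 and 55.1 CPM. Klrb1c was at 99.3, 194, 161 and 136 CPM, Klrd1 at 592, 546.5, 757 and 659 CPM, Klrc1 at 210.1, 228, 173 and 154 CPM and Klrk1 at 263, 348, 362 and 291 CPM. Compared with CD8-like cells, 7 of 21 members at the minimum were 2-fold higher in each library (Klrb1a, Klrb1c, Klrb1f, Klra6, Klra9, Klra7 and Klra1; background 1.91%). The receptors were read both in cells with a Trdc or Tcrg UMI and no Cd8 or Trac UMI, where Klra7 was at 451, 312, 315 and 159.7 CPM, and in cells with the reverse, where it was at 249.8, 431, 419 and 305 CPM.

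In Tcrg-C2 T cells the summed level was 2067 (1967 to 2170.3), 2922.5 (2821 to 3026), 2868 (2709.8 to 3033) and 2285 (2175 to 2399) CPM, so that, unlike in NK-like cells, A159V IgG stood above WT IgG (log2 ratio 0.47). Of 14 members, Klrb1f (1.42), Klra1 (1.25) and Klrb1a (1.17) were 2-fold higher (2.34%) and none 2-fold lower (2.43%). WT anti-PD1 against WT IgG, with a shift of all genes of 0.27, gave 7 of 18 members 2-fold higher (10.9%), among them Klra5 (1.63), Klrc2 (1.38) and Klra1 (1.07), and none lower (6.27%). A159V anti-PD1 against A159V IgG gave Klra5 higher (1.91, 5 and 33 UMIs, 3.06%) and Klra6 lower (-1.07, 1.62%) of 15 members. Of the 15, 13 lay below 0, with a median log2 ratio of -0.25 against 0.08 over all genes.

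Conventional CD4-like cells (136, 97, 74 and 99) carried Klrd1 at 165, 291, 136 and 99.7 CPM, Klrk1 at 155, 263, 84.0 and 70.4 CPM and Klrc1 at 56.3, 136, 52.5 and 23.5 CPM, on 4 to 75 UMIs per gene and library.

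Gamma-delta-like cells, a cluster led by Il23r, Cd163l1 and Il17a, were few (18, 11, 4 and 43). In A159V anti-PD1, which held most of them, Klrk1 was at 138 CPM (13 UMIs), Klrb1b at 63.7 CPM (6 UMIs) and Klrb1f at 42.5 CPM (4 UMIs). At this depth no comparison between libraries could be read.

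Treg-like cells (246, 273, 180 and 251; Foxp3 at 191 to 486 CPM) were led by Klrg1, a marker of effector Treg cells in tissues. The KLRG group held 41.7%, 65.2%, 51.2% and 72.8% of their receptor UMIs. Klrg1 was at 139 (114 to 167), 175 (149 to 205), 206 (159.4 to 262) and 172 (142 to 208) CPM, and the intervals overlapped. A Klrg1 UMI was found in 17.2%, 16.7%, 29.9% and 18.1% of Treg-like cells at 1500 UMIs, against 0 of the stromal-like cells, which allows up to 0.194% to 2.07%. Of the other members, Klrd1 was at 50.5, 14.3, 49.97 and 25.0 CPM, Klrc1 at 34.1, 19.7, 12.5 and 11.0 CPM and Klra5 at 0 UMIs in every library, which allows up to 3.29 to 9.37 CPM. Of 5 or 6 members at the minimum, Klrc1 was lower in A159V IgG over WT IgG (-1.38, interval -2.79 to 0.03, background 3.33%) and Klrd1 in WT anti-PD1 over WT IgG (-1.76, 9.9%). None was 2-fold higher in either (3.11% and 7.94% of all genes), and none of 2 was past 2-fold in A159V anti-PD1 over A159V IgG (4.17% higher, 2.47% lower).

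Klra2 was the Ly49 gene with the highest level in macrophage-like cells. Ly49B, its product, is an inhibitory Ly49 receptor with the motif shown above. In macrophage-like cells (1822 to 3047 per library) it was at 390.4 (378 to 403), 83.8 (77.9 to 89.99), 358 (343 to 374) and 331 (319.7 to 342) CPM, with a UMI in 41.0%, 10.7%, 35.5% and 35.4% of cells at 1500 UMIs and in at most 1.69% of stromal-like cells. WT anti-PD1 was far below the other libraries. In that library 1637 of the 1822 macrophage-like cells sat in cluster 2, led by Retnla, Ccl8 and Mrc1, where Klra2 was at 109.7, 73.2, 118 and 141 CPM. In cluster 1, led by Chil3 and Lyz2, it was at 589.8, 278, 641 and 533 CPM, and in cluster 3, led by Cd300e and C1qa, at 315, 193, 281 and 316 CPM, so that WT anti-PD1 was lowest in each of these 3 clusters, on 50 cells in cluster 1 and 74 in cluster 3. Its interval in cluster 2 overlapped that of A159V IgG. In cluster 7, led by Mmp13 and Ppbp (334, 61, 686 and 779 cells), Klra2 was at 82.5, 94.7, 54.1 and 100.9 CPM, and WT anti-PD1 was not the lowest. Neutrophil-like cells held Klra2 at 294, 191, 550.4 and 407 CPM. It was the 1 member at the minimum there and was not past 2-fold for A159V IgG (8.72% of all genes higher, 4.73% lower) or WT anti-PD1 (19.7% and 11.1%) over WT IgG, nor for A159V anti-PD1 over A159V IgG (4.98% and 8.29%).

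Among the 9 members at the minimum in macrophage-like cells of WT anti-PD1 against WT IgG, Klra2 (-2.21), Klra17 (-2.08) and Klrk1 (-1.97) were 2-fold lower, where 6.29% of all genes were, and Klra8 was higher (1.13, 3 and 17 UMIs, 9.14%). Klrk1 was at 60.4, 14.7, 50.2 and 46.7 CPM. Klrb1b was at 13.2, 13.0, 3.06 and 16.2 CPM. It was the 1 member past 2-fold of the 8 at the minimum in A159V IgG over WT IgG (-1.81, with 0.908% of all genes lower and 0.891% higher) and in A159V anti-PD1 over A159V IgG (2.08, with 1.1% higher and 0.562% lower).

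**Figure D4:**
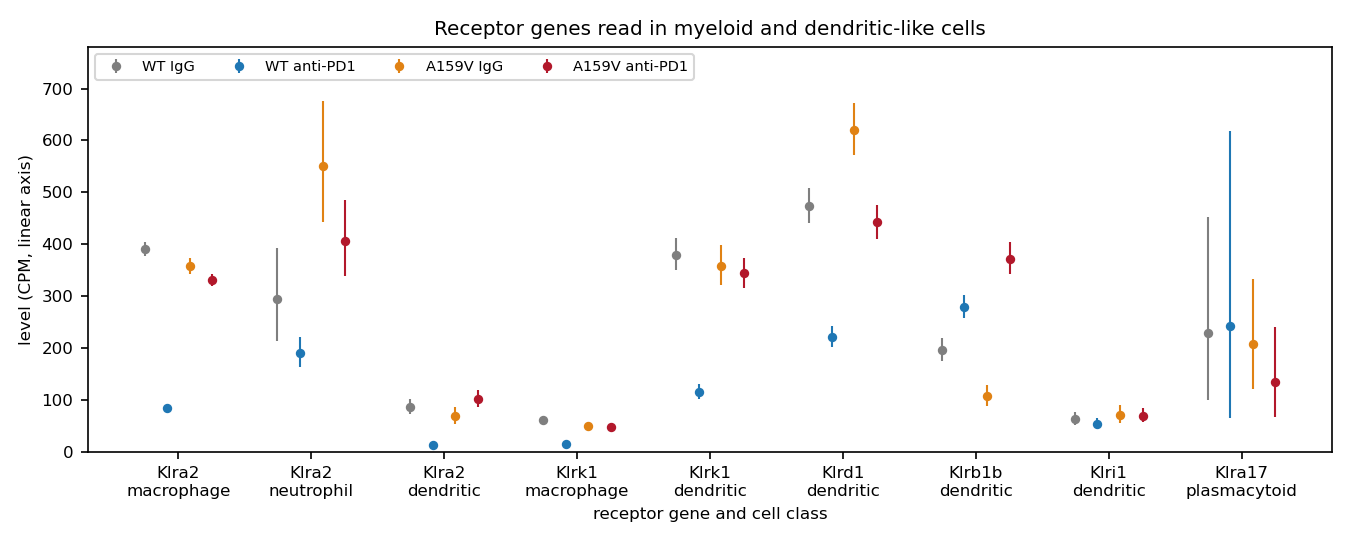
Levels in CPM of the receptor genes of macrophage-like, dendritic-like and neutrophil-like cells, 1 point per library with its 95% Poisson interval. Klra2 in macrophage-like cells is at 83.8 CPM in WT anti-PD1 and at 331 to 390.4 CPM in the others, and Klrb1b in dendritic-like cells is lowest in A159V IgG (107 CPM) and highest in A159V anti-PD1 (372 CPM).

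Dendritic-like cells (365, 308, 356 and 405) held another set. Klrd1 was at 473 (440.1 to 508), 221 (202 to 242), 620.1 (572 to 671) and 442 (409.8 to 476) CPM, and Klrk1 at 379.8, 115, 358 and 344 CPM. Both were lowest in WT anti-PD1. Compared with macrophage-like cells, 7 of 18 members at the minimum were 2-fold higher in each library (Klrb1b, Klre1, Klrd1, Klrk1, Klrc2, Klri1 and Klri2; background 4.68%). Cells with a Cd209a or Mgl2 UMI had Klrd1 at 745, 339, 947 and 577 CPM.

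Klrb1b in dendritic-like cells was at 196 (175 to 219), 279 (258 to 302), 107 (87.4 to 129) and 372 (343 to 404) CPM, with no overlap between any of the 4 intervals. Against the IgG library of the same genotype it was at 0.51 in WT, where the median of all genes was shifted by 0.22. It was at 1.79 in A159V (background 2.45% higher). It was read mostly in cluster 9, at 223, 317, 119 and 431 CPM. In cluster 17, whose leading genes included Ccr7 of migratory dendritic cells, it was lower, at 55.6, 78.9, 71.3 and 56.4 CPM. In A159V IgG over WT IgG, Klri2 (1.06) and Klra17 (1.003) were 2-fold higher of 9 members (2.44%). In WT anti-PD1 over WT IgG, Klra2 (-2.55), Klre1 (-1.91), Klrk1 (-1.72) and Klrd1 (-1.09) were 2-fold lower of 10 (5.19%), and in A159V anti-PD1 over A159V IgG Klra17 was lower (-1.46, 2.28%). Plasmacytoid dendritic-like cells (8, 3, 29 and 22) held Klra17 at 229, 242, 208 and 134 CPM on 4 to 17 UMIs, and Klrd1 at 774, 121, 343 and 488 CPM.

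Klra4 was also read in tumor-like cells, where an NK receptor would not be looked for. It was at 126 (124 to 129), 109 (87.3 to 134, 15 cells), 122 (119 to 124) and 120.1 (118 to 122) CPM, and from 99.5 to 158 CPM over the tumor clusters of the 3 libraries with over 1000 tumor-like cells. At 1500 UMIs per cell a Klra4 UMI was found in 15.7%, 7.14%, 15.9% and 15.3% of tumor-like cells, against 0% to 1.69% of stromal-like cells and at most 0.43% of macrophage-like cells, where 0 in WT anti-PD1 allows up to 0.201%. The median depth of tumor-like cells was 29662 to 46820 UMIs before thinning, and without thinning 80.0% to 91.1% of them had a Klra4 UMI. Klra8, which is the neighbor of Klra4 in the gene cluster, had 2, 0, 7 and 1 UMIs in tumor-like cells. Of all 33149 Klra4 UMIs in analyzed cells, 8.77% were in NK-like cells. The files give 1 count per gene, exons and introns together, so the place of these reads within Klra4 could not be read.

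No other member came near Klra4 in tumor-like cells. Klrg2 was at 6.94, 4.89, 6.60 and 7.49 CPM, and Klra6 had 191, 2, 201 and 254 UMIs. Between A159V IgG and WT IgG no member of 10 at the minimum was past 2-fold (2.06% of all genes higher, 3.51% lower), nor was any of 13 between A159V anti-PD1 and A159V IgG (0.079% and 0.0395%). Klra4 was at log2 ratios of -0.06 and -0.02.

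**Figure D5:**
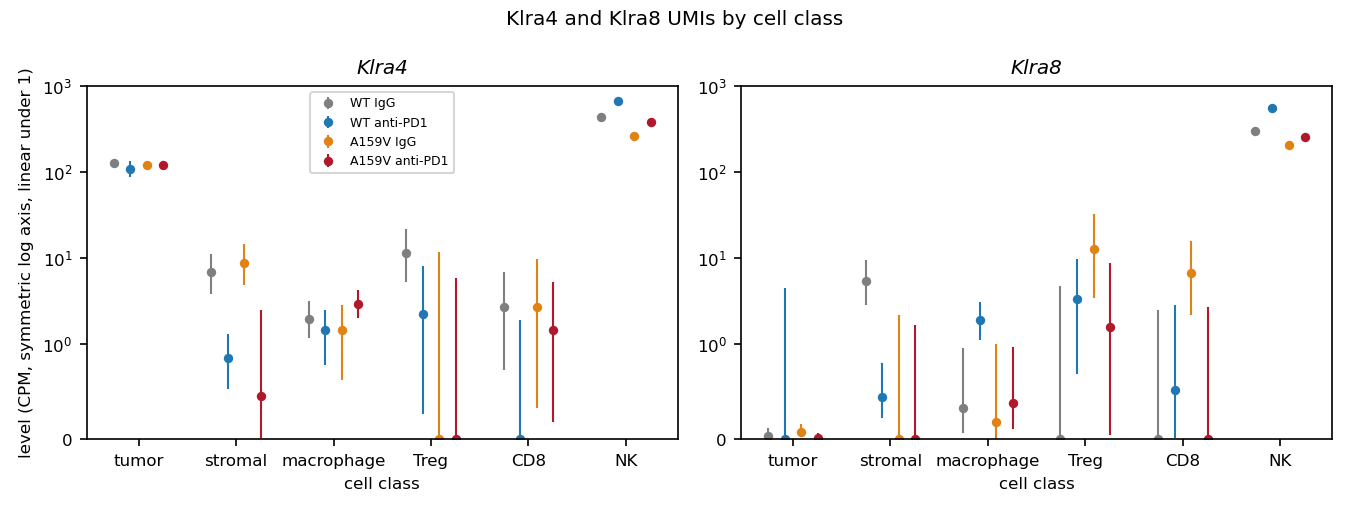
Klra4 and Klra8 levels in CPM (symmetric log axis, linear below 1) in tumor-like, stromal-like, macrophage-like, Treg-like, CD8-like and NK-like cells, 1 point per library with its 95% Poisson interval. Both genes are at 208 CPM or more in NK-like cells, and Klra4 alone is at 109 to 126 CPM in tumor-like cells.

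Ligands of the receptors were read in tumor-like cells of the 3 libraries with over 1000 such cells. These cells were mostly of tumor cluster 5 in WT IgG (1351 of 1999). They were mostly of tumor cluster 0 in A159V IgG (2192 of 2823) and A159V anti-PD1 (1451 of 2068). Ligand levels were not split by cluster, and the part of this mix in the values below was not tested. In A159V IgG over WT IgG, 0 of 4 NKG2D ligands at the minimum, 1 of 7 MHC class I ligands, 1 of 4 NKR-P1 ligands and 0 of 3 KLRG1 ligands were past 2-fold (2.06% of all genes higher, 3.51% lower), and in A159V anti-PD1 over A159V IgG none was (0.079% and 0.0395%). Among NKG2D ligands, Raet1e was at 32.2, 24.5 and 25.7 CPM in WT IgG, A159V IgG and A159V anti-PD1, Ulbp1 (MULT1) at 12.6, 10.8 and 11.8 CPM and Raet1d at 9.27, 6.25 and 4.84 CPM. The classical MHC class I genes read by Ly49 receptors were lower in the A159V libraries, with H2-K1 at 2536, 1573 and 1911 CPM and H2-D1 at 1622, 1034 and 1144 CPM, though not past 2-fold. H2-T23 (Qa-1), the ligand of the CD94-NKG2 pairs, was at 3.28, 8.53 and 6.51 CPM and its A159V IgG level was over 2-fold that of WT IgG. Clec2d, the ligand of the Klrb1b product, was at 27.4, 9.98 and 10.7 CPM, over 2-fold lower in A159V IgG. Macrophage-like cells held more of both, with H2-T23 at 211 to 287 CPM and Clec2d at 220.1 to 429 CPM.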

How the data were processed

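The deposited values are raw UMI counts per gene and cell, which the authors made from 10x Genomics 3′ libraries (v3.1) on mm10 with introns counted. The file headers name Cell Ranger 7.2.0 and the submitters' processing notes 5.0.1. The counts had not been corrected for background RNA or doublets, and none was subtracted here. Cells with more than 500 genes were kept, and doublets were predicted by comparison with 2 simulated doublets per cell and removed at 0.8% per 1000 cells. The 4 libraries were clustered together (2000 variable genes, 20 principal components, 20 neighbors, Leiden resolution 1, leidenalg 0.10.2, igraph 0.11.9) without the receptors, adaptors and ligands, and T and NK cells were clustered again. UMIs were summed per class and library and given as CPM with exact 95% Poisson intervals. Shares of cells used 1500 UMIs per cell, shallower cells left out, and exact binomial (Clopper-Pearson) intervals. Where 0 was counted the upper limit is that of 3 counts. Depth was 54402632 to 125227747 UMIs per library.

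With 1 library per group there was no test. A gene was past 2-fold if its log2 ratio, with a pseudocount of 1 CPM, passed 1 in size and it had at least 20 UMIs in both libraries together, and counts of members are read against the share of all genes past the same limit. Genes were named by role for all 26 members, with lists of adaptors, signalling genes, ligands, transcription factors and other NK receptors. The members and lists were chosen with earlier results of these data known. Alternatives were other cell filters, clustering resolutions, scalings, limits and thinning depths, a gate on marker UMIs in place of clusters (loosened after a first version had left few NK-like cells in WT anti-PD1), and leaving out 1 cluster, chosen after seeing the data. The scripts were tested on simulated data. Python 3.11.15, NumPy 2.4.6, SciPy 1.17.1, pandas 2.3.3, scikit-learn 1.9.0 and matplotlib 3.10.9 were used.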

Additional observations from a re-analysis of the deposited data

Results flagged for a closer look

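For 7 pairs of receptor and class, the log2 ratio of anti-PD1 over IgG had opposite signs in WT and A159V tumors, each with an interval that excluded 0. With 1 library per group, none of these differences was tested, and each holds the WT anti-PD1 library, which stood apart. The difference, A159V log2 ratio minus WT log2 ratio, was 0.43 for Klrd1 in CD8-like cells (-0.12 in WT, 0.30 in A159V) and 3.12 for Klra2 in dendritic-like cells (-2.55 in WT, 0.57 in A159V). The other 5 were in Tcrg-C2 T cells, where WT was above 0 and A159V below it. They were -0.72 for Klrk1 (0.40 and -0.31), -1.86 for Klrc2 (1.38 and -0.48), -1.76 for Klra6 (0.69 and -1.07), -0.94 for Klra7 (0.45 and -0.50) and -1.75 for Klra1 (1.07 and -0.68). In WT, the Tcrg-C2 T cells came from cluster 9 for anti-PD1 and from cluster 1 for IgG, and the median of all genes was shifted by 0.27.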

How the results depend on the processing

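No paired analysis was possible because each group held 1 library and the labels gave no replicate numbers to pair. Intervals cover counting error, so differences between tumors of 1 group are not seen in them, and no background RNA was subtracted.

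The summed level in NK-like cells, A159V IgG over WT IgG, was below 0 under all alternatives run. From -0.29 on the log2 scale it moved to -0.38 with over 1000 genes per cell, -0.35 at resolution 0.6, -0.23 with median-of-ratios scaling and -0.25 without the granzyme-led cluster. For WT anti-PD1 over WT IgG it went from 0.25 to 0.19 with over 1000 genes, 0.19 at resolution 0.6, 0.12 as a mean over cells, 0.17 without that cluster and, reversed, -0.077 with median-of-ratios scaling. For A159V anti-PD1 over A159V IgG it reversed from 0.09 to -0.072 with that scaling. In CD8-like cells no direction reversed. A159V IgG over WT IgG (-0.29) became -0.54 with over 1000 genes, -0.77 at resolution 0.6, -0.40 with the gate, -0.49 as a mean over cells and -0.84 without the cycling cluster. WT anti-PD1 over WT IgG (0.37) became 0.30 at resolution 1.6, 0.22 with median-of-ratios scaling, 0.44 as a mean over cells and 0.30 without the cycling cluster. A159V anti-PD1 over A159V IgG (0.28) became 0.54 with over 1000 genes, 0.76 at resolution 0.6, 0.46 with the gate, 0.43 as a mean over cells and 0.76 without the cycling cluster.

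The count of members past 2-fold in NK-like cells, A159V IgG over WT IgG, was 0 and became 1 with over 1000 genes, as a mean over cells, with the tumor-like and stromal-like level subtracted or without the granzyme-led cluster, 2 with the gate or with no minimum of UMIs, and 11 at 1.5-fold. For WT anti-PD1 it was 3 and became 7 with the gate, 1 (none of those 3 genes) with median-of-ratios scaling, 1 as a mean over cells, 5 with subtraction and 10 at 1.5-fold, 8 of them higher, where 35.7% of all genes were higher. For A159V anti-PD1 it was 2 and became 5 at 1.5-fold. The share of all genes past the limit was taken only for the setting used above and for 1.5-fold. The other counts are therefore not read as results about the receptors. The share of NK-like cells with a receptor UMI was 94.5% in WT IgG and 95.6% in A159V IgG at 1000 UMIs and 99.3% in A159V IgG without thinning. The cause of these moves was not tested. Among single genes 43 alternative values stayed within the counting error and 7 moved.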
